A study of Mus musculus with 24 samples.

Results

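The Galnt and sialyltransferase genes build and cap a large class of sugar chains in the secretory pathway. They were followed in dermal papilla (DP) cells, the mesenchymal cells at the base of the hair follicle, through a hair cycle and after loss of the histone deacetylases Hdac1 and Hdac2. The genes were chosen by symbol (Galnt, St3gal, St6gal or St8sia with its number, the St6galnac genes included), which gave 36 of the 25755 genes in the files. They comprise 16 Galnt genes and 20 sialyltransferases, the latter made up of 6 St3gal, 2 St6gal, 6 St6galnac and 6 St8sia genes. Among them, Galnt13, Galnt14 and St6gal2 were chosen by their measured fall from P24 to P28 in controls, so that this fall is given as a description and no test in this text uses the P24 or P28 control libraries for these 3 genes. The other 33 genes entered by name alone.

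RNA was sequenced from DP cells of 3 control and 3 double mutant mice, designated dM1/2, at each of 4 ages, which gave 24 libraries, 1 per mouse. The ages were P20 (first telogen, the resting phase), P24 (early anagen, the growth phase), P28 (mid anagen) and P60 (second telogen). In dM1/2 mice, floxed alleles of both Hdac1 and Hdac2 were recombined by Corin-Cre, a Cre driven from a gene that is active in the DP after birth. The controls carried Corin-Cre too, together with floxed alleles that leave at least 1 intact copy of Hdac1 or Hdac2. Which control library had which of these genotypes is not given in the labels. All mice carried a YFP reporter of Cre activity on a mixed background (FVB for the Cre line, C57BL/6J for the floxed alleles), and YFP-positive cells were sorted from back skin 2 times. Deletion is thus limited to cells that expressed the Cre, and the bulk RNA of a sort cannot tell fewer cells of a type from less RNA per cell.

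A Galnt enzyme begins a mucin-type O-glycan by moving N-acetylgalactosamine from UDP onto a serine or threonine, and its relatives differ in the peptides they prefer. Sialyltransferases then cap glycans with sialic acid, the charged sugar that many lectins and pathogens bind. St3gal and St6gal enzymes cap galactose, St6galnac enzymes cap N-acetylgalactosamine, and St8sia enzymes add sialic acid to sialic acid, which in the case of St8sia2 and St8sia4 gives the polysialic acid of the neural cell adhesion molecule. In hair follicles, the DP instructs the surrounding epithelium through secreted and surface glycoproteins.

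The values are normalized reads, the read count of a gene divided by the size factor of its library. Libraries held between 8171944 and 13369732 reads on genes in telogen and between 35469841 and 49331751 in anagen, so that 1 read stood for 1.85 to 2.87 normalized reads in telogen and for 0.338 to 0.64 in anagen. A gene without a read could still have had up to 3, a limit for counting error only. Telogen libraries came from females and anagen libraries from males, with Xist at 8113 normalized reads or more in every telogen library and at 3.91 or less in every anagen library, so that hair cycle stage, sex and depth cannot be told apart between these pairs of ages. All 12 DP markers examined (among them Corin, Sox2 and Vcan) were present in every group, with summed levels of 14699 to 47867 normalized reads in telogen and 118325 to 403056 in anagen. Hdac1 at P24 had 675, 668 and 668 normalized reads in the controls and 209, 188 and 116 in dM1/2, a log2 difference of -2.01 (standard error 0.22, adjusted p = 0.00167, limma). At P28, Hdac1 had 214, 529 and 105 normalized reads in the controls and 190.2, 149 and 126 in dM1/2, so that the library labelled P28 control 3 lay below all 3 dM1/2 libraries. The counts of calls at P28 and the values of the genes called are therefore also given without this library. There the difference of Hdac1 was -1.13 (adjusted p = 0.0426, limma) in place of -0.58 (adjusted p = 0.454). Without P28 control 2 it was 0.03 (adjusted p = 0.958, limma), so that the check of the genotype at P28 depends on which control is left out. In telogen the difference of Hdac1 did not pass at P20 (-0.72, adjusted p = 0.122, limma) or at P60 (-0.25, adjusted p = 0.986, limma). Hdac2 had 703 to 1054 normalized reads as group means in controls and 743 to 1221 in dM1/2, and reads of this gene can also come from a deleted allele.

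Promoters are shown for Galnt13, Galnt14 and St6gal2, the genes chosen by their fall, and for St8sia2, a gene that also fell in the controls from P24 to P28 and was picked for display after its values were seen. RefSeq promoter windows (GRCm38.p6) were found for 24 of the 36 genes, and those of the other genes are not printed. Only bases before both the RefSeq and the GENCODE start of each gene are printed, 5′ to 3′ on the strand of the gene. Capitals mark the GC box GGGCGG, or its reverse complement CCGCCC, a motif that Sp1-type factors bind.
Galnt13, chr2:54436137-54436316, plus strand: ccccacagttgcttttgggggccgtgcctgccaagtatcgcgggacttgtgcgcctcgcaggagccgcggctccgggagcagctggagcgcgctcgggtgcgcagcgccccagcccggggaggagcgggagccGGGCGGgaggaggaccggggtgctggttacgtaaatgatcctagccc
Galnt14, chr17:73710454-73710701, minus strand: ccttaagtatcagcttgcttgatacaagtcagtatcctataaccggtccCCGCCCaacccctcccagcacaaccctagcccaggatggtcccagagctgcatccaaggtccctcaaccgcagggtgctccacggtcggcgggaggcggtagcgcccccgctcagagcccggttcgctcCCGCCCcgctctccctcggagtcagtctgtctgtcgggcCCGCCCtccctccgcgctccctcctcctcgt
St6gal2, chr17:55445132-55445381, plus strand: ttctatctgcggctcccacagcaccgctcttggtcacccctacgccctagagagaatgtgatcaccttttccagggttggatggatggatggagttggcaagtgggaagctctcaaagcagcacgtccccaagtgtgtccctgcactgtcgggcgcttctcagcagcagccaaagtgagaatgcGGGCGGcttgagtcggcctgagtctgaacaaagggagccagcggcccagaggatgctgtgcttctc
St8sia2, chr7:74013691-74013932, minus strand: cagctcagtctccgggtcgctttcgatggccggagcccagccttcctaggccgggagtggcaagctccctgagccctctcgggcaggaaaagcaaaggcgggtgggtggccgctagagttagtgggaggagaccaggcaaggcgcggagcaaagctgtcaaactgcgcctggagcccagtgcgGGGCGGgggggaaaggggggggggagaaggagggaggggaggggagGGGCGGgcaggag
Their G and C content was 71.7% for Galnt13, 66.1% for Galnt14, 58.4% for St6gal2 and 69.0% for St8sia2, beside a median of 52.4% over the 250 bases before the start in all 32851 promoter windows of the table. The median over the 32 windows of the Galnt and sialyltransferase genes was 64.4%. The full 250 bases before the RefSeq start held 23, 19, 10 and 15 CpG dinucleotides, respectively, beside a median of 6 over all windows and of 16 over the windows of the Galnt and sialyltransferase genes. Galnt14 had 3 GC boxes, St8sia2 had 2, and Galnt13 and St6gal2 had 1 each. A GC box on either strand was present in 32.7% of all windows and in 17 of the 32 windows of the Galnt and sialyltransferase genes. The TATA motif (TATAAA, either strand) was in 12.4% of all windows and in 0 of these 32, and the site of the Wnt pathway factors Lef1 and Tcf (CTTTGAT, either strand) was in 3.21% of all windows and in 0 of these 32. These are matches of letters in a short window and do not show binding.

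The genes differed widely in level, and their order changed with age. Compared per kilobase of exon, St3gal1 led in the P20 controls with a mean of 849 normalized reads per kilobase, followed by St3gal4 with 770.1 and St3gal2 with 564. These 3 enzymes cap galactose, St3gal1 and St3gal2 on O-glycans. At P60, St3gal1 again led the controls (842 normalized reads per kilobase), and Galnt15 came next with 693. In the P24 controls, St3gal2 (532) was followed by Galnt1 (393), St3gal4 (330.5) and Galnt10 (280.4), all in normalized reads per kilobase. In the P28 controls, St6galnac5, which sialylates gangliosides, stood first with 836 normalized reads per kilobase, followed by St3gal2 with 605 and Galnt1 with 403.

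Galnt1 was the steadiest gene, with group means between 1843 and 2235 normalized reads over the 8 groups. Of the 32 genes that passed the filter on low values in at least 1 comparison (a mean of at least 10 normalized reads), 8 had group means within a 2-fold range, Galnt1, Galnt4, Galnt7, Galnt10, Galnt11, Galnt18, St3gal3 and St6galnac6. In 11 genes the highest group mean was more than 10 times the lowest, Galnt3, Galnt9, Galnt13, Galnt14, Galnt15, St3gal6, St6gal2, St6galnac3, St6galnac5, St8sia2 and St8sia6. Galnt6, St6galnac1, St8sia3 and St8sia5 passed the filter in no comparison, with 103, 21, 108 and 5 reads in all 24 libraries together. The low values of Galnt2, 12.1 to 33.5 normalized reads as group means, are not a measure of its level, since 90.0% of its exon bases also belong to the gene model Gm20388 on the same strand.

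**Figure D1:**
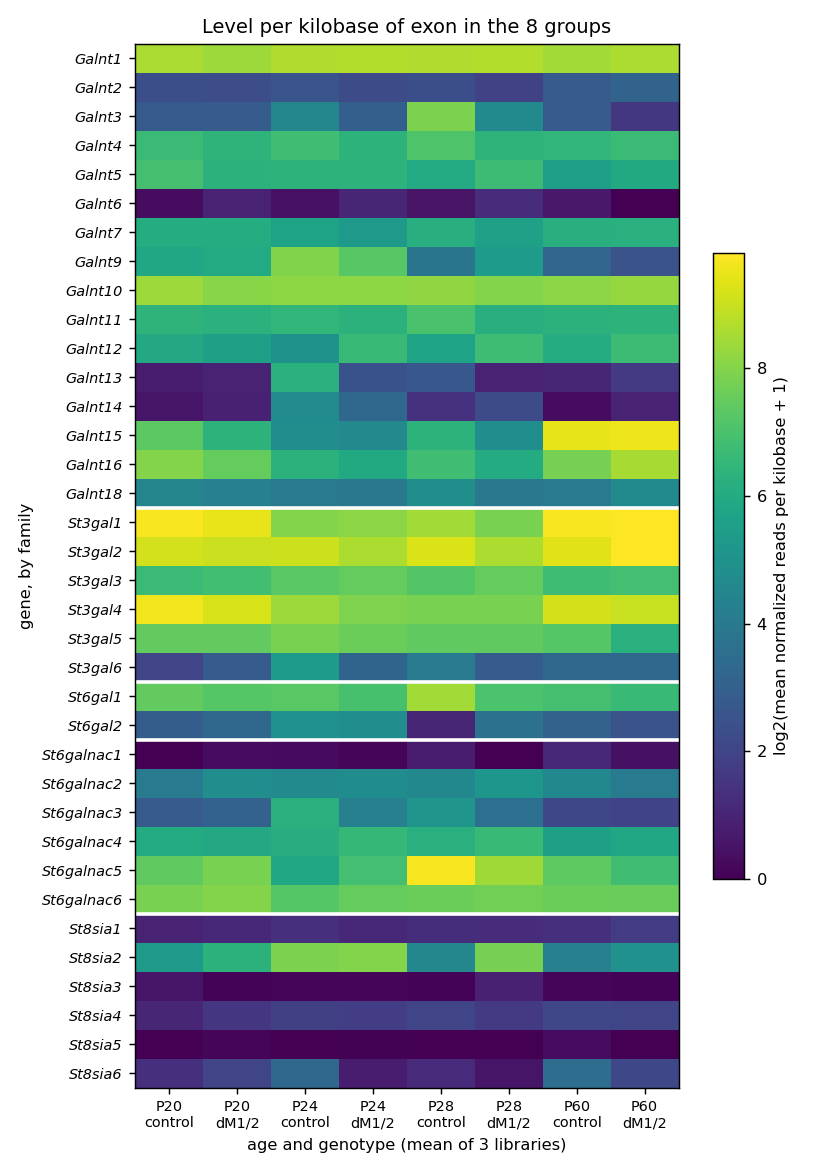
Mean normalized reads per kilobase of exon of all 36 genes in the 8 groups of age and genotype (3 libraries each), as log2(mean + 1) by colour, with white lines between families. Galnt1 and Galnt10 are nearly even in colour across the columns, Galnt15 is brightest at P60, and St6galnac5 is brightest in the P28 controls.

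Galnt13, a close relative of Galnt1 best known from neural tissue, was high in a single group. Its normalized reads were 665, 535 and 556 in the P24 controls and 60.9, 27.5 and 36.4 in the P28 controls. In dM1/2 they were 62.5, 26.3 and 16.6 at P24 and 8.10, 5.14 and 8.43 at P28. The lowest P24 control was thus above every other library of both anagen ages, and the dM1/2 libraries were below the controls at either age without overlap. The mean at P24 was 16.7 times higher in controls than in dM1/2 (a log2 difference of -4.22, dM1/2 minus control), and at P28 it was 5.76 times higher (-2.32), with no test for the reason given above. In telogen, Galnt13 had between 0 and 45.4 normalized reads, which is 18 reads or fewer in any library.

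Galnt14, a relative of Galnt2, had 171, 108 and 178 normalized reads in the P24 controls and 15.7, 7.04 and 6.83 in the P28 controls. The dM1/2 values were 45.1, 57.9 and 55.1 at P24 and 20.5, 28.7 and 19.3 at P28. The groups did not overlap at either age, but their order turned around, with dM1/2 below control at P24 (log2 difference -1.49) and above control at P28 (1.21). Galnt14 had at most 11.1 normalized reads in any telogen library.

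St6gal2, the less widely expressed of the 2 St6gal enzymes, overlapped between the genotypes at P24 and not at P28. It had 337, 191 and 138 normalized reads in the P24 controls and 99.2, 312 and 189 in dM1/2, a log2 difference of -0.20 (with values between -0.59 and 0.23 when any 1 library was left out). In the P28 controls 10.9, 5.76 and 7.58 normalized reads remained, while the dM1/2 libraries held 132, 54.0 and 73.1, a mean 10.7 times higher (log2 difference 3.21). Unlike Galnt13 and Galnt14, St6gal2 was also present in telogen, with 27.7 to 77.7 normalized reads per library. At P20 its log2 difference between dM1/2 and control was 0.53 (standard error 0.29, adjusted p = 0.344, limma) and at P60 -0.71 (0.39, adjusted p = 0.986, limma).

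**Figure D2:**
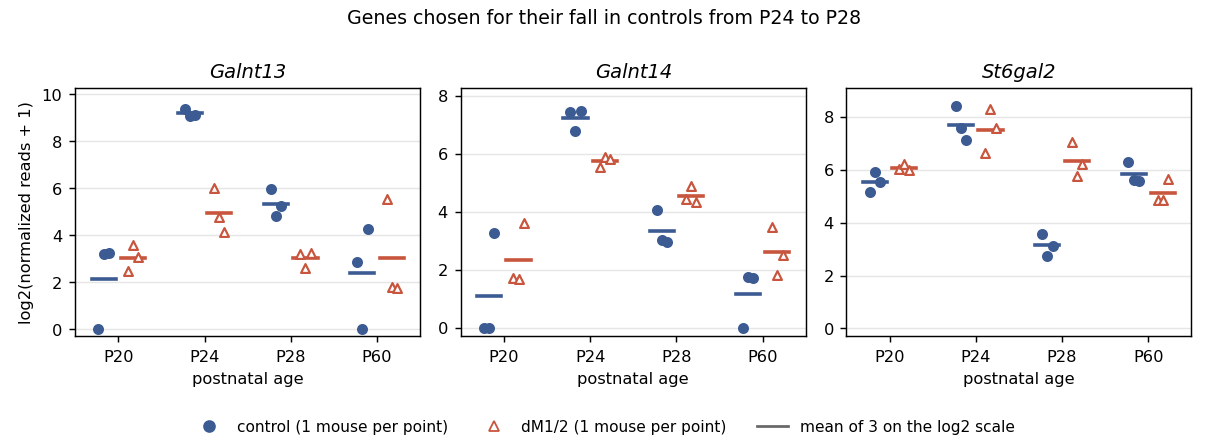
Normalized reads of Galnt13, Galnt14 and St6gal2 on the scale log2(normalized reads + 1) at the 4 ages, 1 point per mouse (control filled circles, dM1/2 open triangles), with a line at the mean of 3. In each panel the controls drop from P24 to P28, and at P28 the dM1/2 triangles lie below the controls for Galnt13 and above them for Galnt14 and St6gal2.

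The fall in controls was 14.1 times in the mean for Galnt13 (log2 difference -3.85, P28 minus P24), 15.5 times for Galnt14 (-3.88) and 27.5 times for St6gal2 (-4.56). Leaving out 1 library moved these log2 differences between -4.16 and -3.60, between -4.24 and -3.69, and between -4.85 and -4.21, respectively. These ranges describe the libraries on which the choice was made and lend the fall no support. The choice did not take Galnt9, whose fall in the same controls (-4.37) was larger than those of Galnt13 and Galnt14, nor St8sia2 (-3.28), St8sia6 (-2.82) and St3gal6 (-1.42). In the other direction, St6galnac5 (3.95) and Galnt3 (3.84) rose most in these controls. Over all genes tested in that comparison, 1.46% changed at an adjusted p under 0.05 (limma), and no p is given for any gene described here since the choice was made on it.

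The same step in dM1/2 uses none of the libraries on which the choice was made. There, Galnt13 had a log2 difference of -1.95 (P28 minus P24, standard error 0.53, adjusted p = 0.103), Galnt14 of -1.19 (0.28, adjusted p = 0.0663) and St6gal2 of -1.15 (0.44, adjusted p = 0.228), all with limma and n = 3 per age. None of these passed the threshold. With DESeq2 on the recovered reads, Galnt13 and Galnt14 passed (adjusted p = 0.00489 and 0.00532), and with edgeR neither did. The P24 libraries of dM1/2 did not overlap those of P28 for Galnt13 and Galnt14 and overlapped for St6gal2. These comparisons share libraries with those between genotypes, and the difference between the fall in controls and that in dM1/2 was not tested.

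Of the 31 genes tested in that step in dM1/2, 2 passed the threshold, beside 2.67% of all genes (1.69% higher at P28 and 0.983% lower). Galnt3, which glycosylates the phosphate hormone Fgf23, rose from 18.9, 45.3 and 26.7 normalized reads at P24 to 91.7, 93.4 and 141 at P28 (log2 difference 1.87, standard error 0.34, adjusted p = 0.0287, limma). Galnt9, known mainly from brain, fell from 578, 331 and 464 to 58.0, 106 and 201 (-2.05, standard error 0.40, adjusted p = 0.0386, limma). Neither gene overlapped between the ages. Both calls were lost without P24 dM1/2 1, without P28 dM1/2 2 and in a fit over all 24 libraries. The call of Galnt3 was also lost without P28 dM1/2 3, and that of Galnt9 without P24 dM1/2 3 and with edgeR. St6galnac5 had a log2 difference of 1.69 (adjusted p = 0.0547, limma), which DESeq2 called (adjusted p = 0.000496).

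At P24, 29 of the 33 genes chosen by name were tested between the genotypes, and 6 passed the threshold (1 higher and 5 lower in dM1/2). This share is not above that of all genes, of which 26.6% passed (14.8% higher and 11.8% lower). By family, these were 2 of 13 Galnt genes, 2 of 6 St3gal genes, 1 of 5 St6galnac genes, 1 of 4 St8sia genes and not St6gal1. The median log2 difference of the 29 genes was -0.13, beside -0.01 for all genes tested.

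St8sia6, which adds a second sialic acid to O-glycans, had the largest difference of them. It had 81.2, 48.7 and 69.9 normalized reads in the P24 controls and 5.82, 6.47 and 4.73 in dM1/2, a mean 11.7 times lower (log2 difference -3.32, standard error 0.35, adjusted p = 0.00158, limma). St3gal6, an enzyme that makes sialylated ends of the kind selectins bind, had 209, 354 and 220.3 normalized reads in controls and 50.9, 40.0 and 55.8 in dM1/2 (-2.36, standard error 0.26, adjusted p = 0.00162). St6galnac3 had 580.3, 741 and 662 in controls and 182, 187 and 119.7 in dM1/2 (-2.03, standard error 0.20, adjusted p = 0.00139). In all 3 genes the highest dM1/2 library was below the lowest control, which was a condition for showing their values. Their calls held in all 12 alternatives and at an adjusted p under 0.01. For St3gal6, 26.0% of the exon bases lie opposite exons of Dcbld2, and the strand setting of the counting is not given in the sources used here.

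Galnt12 was the only gene of the 29 that was called higher in dM1/2 at P24, with 226, 188 and 252 normalized reads against 92.5, 71.3 and 46.4 in controls (log2 difference 1.69, standard error 0.27, adjusted p = 0.00492, limma). Galnt4 was lower, with 402, 404 and 407 against 594, 533 and 548 (-0.46, adjusted p = 0.021, limma), and so was St3gal4, with 746, 653 and 725 against 966, 841 and 1091 (-0.44, adjusted p = 0.0449, limma). The latter calls were less firm, since Galnt4 lost its call in 5 of 12 alternatives (among them without P24 control 1 or 2 or P24 dM1/2 1 or 2) and St3gal4 in 9 of 12 (among them without any 1 of the 6 libraries). In Galnt4, 8.25% of the exon bases are shared with Poc1b on the same strand.

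The DP markers moved with the genotype at P24. All 12 of them summed to 288745 to 354589 normalized reads in controls and to 151092 to 185462 in dM1/2, with 5 of them called lower and 2 higher. Among markers of other cells at P24, 1 of 5 tested for the dermal sheath, 1 of 4 for endothelium and 1 of 8 for keratinocytes were called lower. The summed levels of these lists overlapped between the genotypes (2903 to 8459 in controls and 2622 to 4247 in dM1/2 for the dermal sheath). Further lists of markers are not reported for this age, and the overlap is not stated for them. At P28 the 12 DP markers summed to 249079, 140462 and 403056 normalized reads in the controls. In dM1/2 they summed to 118325 to 133521, again without overlap, with 3 of them called lower and 4 higher. The part of these markers in the differences described at P24 and P28 was not tested.

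At P28, 28 of the 33 genes were tested and 10 passed, 1 higher and 9 lower in dM1/2. This again is close to the share over all genes, of which 35.5% passed (20.0% higher and 15.6% lower). By family, 3 of 13 Galnt, 3 of 6 St3gal, 2 of 5 St6galnac and 1 of 3 St8sia genes passed, as did St6gal1. The median log2 difference of the 28 genes was -0.22, beside 0.00 for all genes. Without the library labelled P28 control 3, 15 passed (2 higher and 13 lower) of all 28, beside 40.9% of all genes, and the 10 calls were among them. Their log2 differences were then 3.20 for St8sia2, -3.03 for Galnt3, -1.33 for St6gal1, -1.24 for St3gal6, -1.17 for St6galnac3 and -0.92 for St6galnac5, and between -0.57 and -0.74 for Galnt4, Galnt11, St3gal1 and St3gal2, with adjusted p-values between 3.2e-05 and 0.016 (limma).

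St8sia2, a polysialyltransferase, was the 1 gene called higher at P28. It had 137, 121 and 101 normalized reads in the P28 controls and 1081, 1179.7 and 1347 in dM1/2 (log2 difference 3.32, standard error 0.16, adjusted p = 0.000161, limma). At P24 the genotypes overlapped, with 934, 863 and 1949 in controls and 1610.1, 1302 and 1212 in dM1/2 (0.23, adjusted p = 0.62, limma). The dM1/2 libraries of P28 thus lay within the range of both genotypes together at P24, and the controls of P28 were below it. Against dM1/2 alone at P24, the values of 1081 and 1179.7 were below the lowest (1212). The other polysialyltransferase, St8sia4, had 23.7 to 119 normalized reads per library at P28 in controls and 28.3 to 54.2 in dM1/2 (-0.25, adjusted p = 0.774, limma).

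Galnt3 went the other way. It had 948, 804 and 1298 normalized reads in the P28 controls and 91.7, 93.4 and 141 in dM1/2, a mean 9.37 times lower (log2 difference -3.22, standard error 0.25, adjusted p = 0.000363, limma). At P24, where the controls held 60.4, 195 and 27.0 and dM1/2 18.9, 45.3 and 26.7, the groups overlapped (-1.24, adjusted p = 0.22, limma). St6gal1, which caps the galactose of N-glycans, had 1851, 1366 and 1978 normalized reads in the P28 controls and 556, 657 and 684 in dM1/2 (-1.44, standard error 0.17, adjusted p = 0.00138, limma). In St6galnac5 the P28 controls had 3458, 4219 and 7379.9 and dM1/2 had 2340.3, 1963 and 1799.7 (-1.23, standard error 0.28, adjusted p = 0.0151, limma). None of these 3 genes overlapped between the genotypes at P28, which was a condition for showing their values. Only St6galnac5 lost its call in an alternative, without P28 dM1/2 2 or 3 (adjusted p up to 0.0601, limma).

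Of the sialyltransferases that were lower at P24 in dM1/2, St3gal6 and St6galnac3 were lower again at P28 and St3gal4 was not called (log2 difference 0.06, adjusted p = 0.902, limma). St3gal6 had 119, 71.1 and 99.0 normalized reads in controls and 41.4, 36.4 and 37.3 in dM1/2 (log2 difference -1.28, adjusted p = 0.00971, limma). St6galnac3 had 311, 161 and 439.9 in controls and 109.6, 94.7 and 92.7 in dM1/2 (-1.50, adjusted p = 0.0174, limma), a call that was lost without P28 control 1 or without P28 dM1/2 2 or 3. St8sia6 was below the filter at P28, with 17.4, 4.48 and 7.21 in controls and 3.84, 4.29 and 2.41 in dM1/2.

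Smaller differences at P28 concerned 4 genes whose control libraries were all above those of dM1/2, again a condition for showing their values. The normalized reads of Galnt11, known to glycosylate Notch1, were 865, 768 and 965 in controls and 484, 492 and 486 in dM1/2 (log2 difference -0.82, adjusted p = 0.00322, limma). Galnt4 had 634, 606 and 833 against 423, 408 and 422 (-0.71, adjusted p = 0.0115, limma), and St3gal2 had 3124, 3129 and 2889.8 against 1925, 1998 and 1959 (-0.64, adjusted p = 0.00456, limma). St3gal1 had 2149.6, 3108 and 1986 against 1595, 1596 and 1547 (-0.58, adjusted p = 0.0435, limma), a call that was lost in 6 of 12 alternatives, among them without P28 control 1 or any 1 of the dM1/2 libraries.

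**Figure D3:**
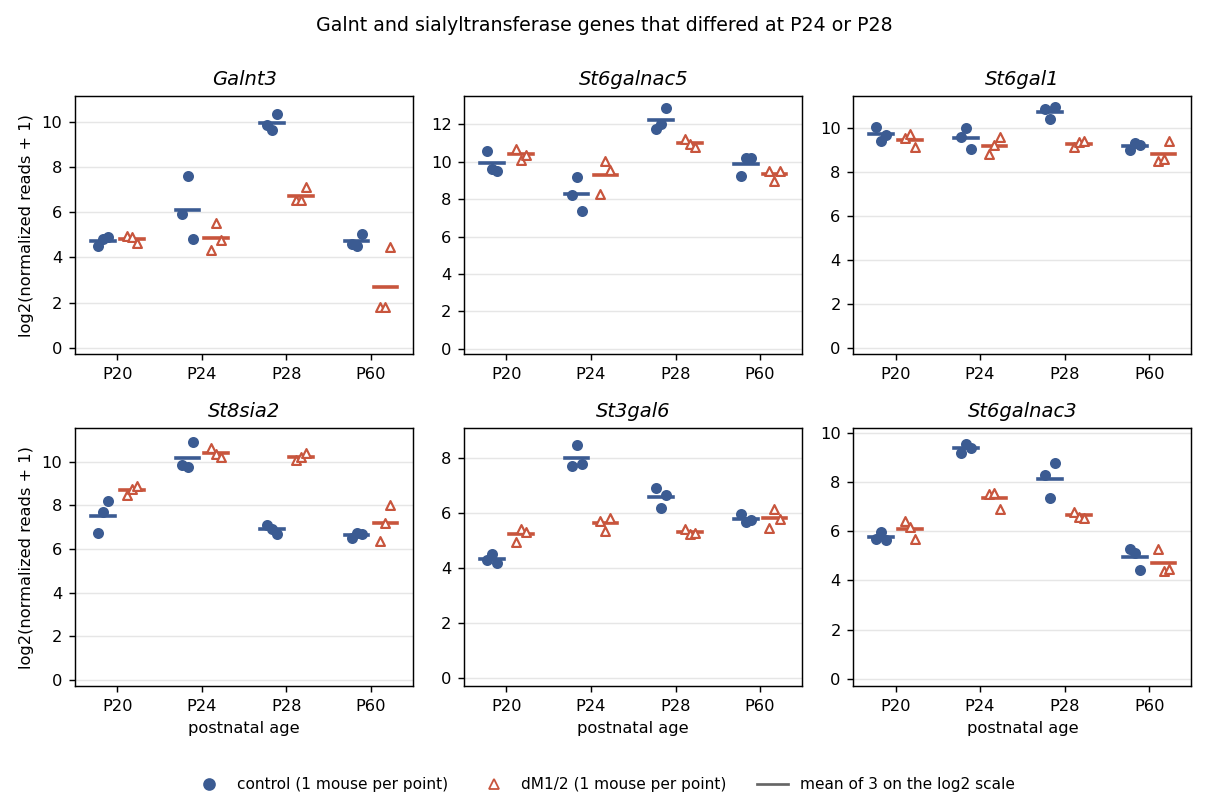
Normalized reads of Galnt3, St6galnac5, St6gal1, St8sia2, St3gal6 and St6galnac3 on the scale log2(normalized reads + 1) at the 4 ages, 1 point per mouse, with a line at the mean of 3. At P28 the dM1/2 triangles lie below all controls in every panel except St8sia2, where they lie above them at 1081 to 1347 normalized reads.

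Galnt5, Galnt12, Galnt15, Galnt16 and Galnt18, named here after their values were seen, were lowest among the P28 controls in the library labelled P28 control 3. Galnt15 had 698, 772 and 67.9 normalized reads in the 3 controls and 193, 201 and 117 in dM1/2. Galnt16 had 1028, 1536 and 124 against 466, 496 and 584. The 5 markers of other fibroblasts (Dpt, Lum, Pi16, Dpp4 and Ly6a) summed to 36725, 74166 and 4756 in the same 3 controls and to 12671 to 22373 in dM1/2, with all 5 present, and their part in these values was not tested. Without that library, Galnt7 (log2 difference -0.63, adjusted p = 0.0304), Galnt15 (-2.14, adjusted p = 0.00065), Galnt16 (-1.29, adjusted p = 0.00209) and Galnt18 (-1.29, adjusted p = 0.0229) were also called lower and St6galnac4 higher (0.60, adjusted p = 0.0452), all with limma. With all 3 controls, Galnt12 had a log2 difference of 1.65 that did not pass (adjusted p = 0.152, limma), with 113, 213 and 19.0 in controls and 247, 270.4 and 222 in dM1/2.

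**Figure D4:**
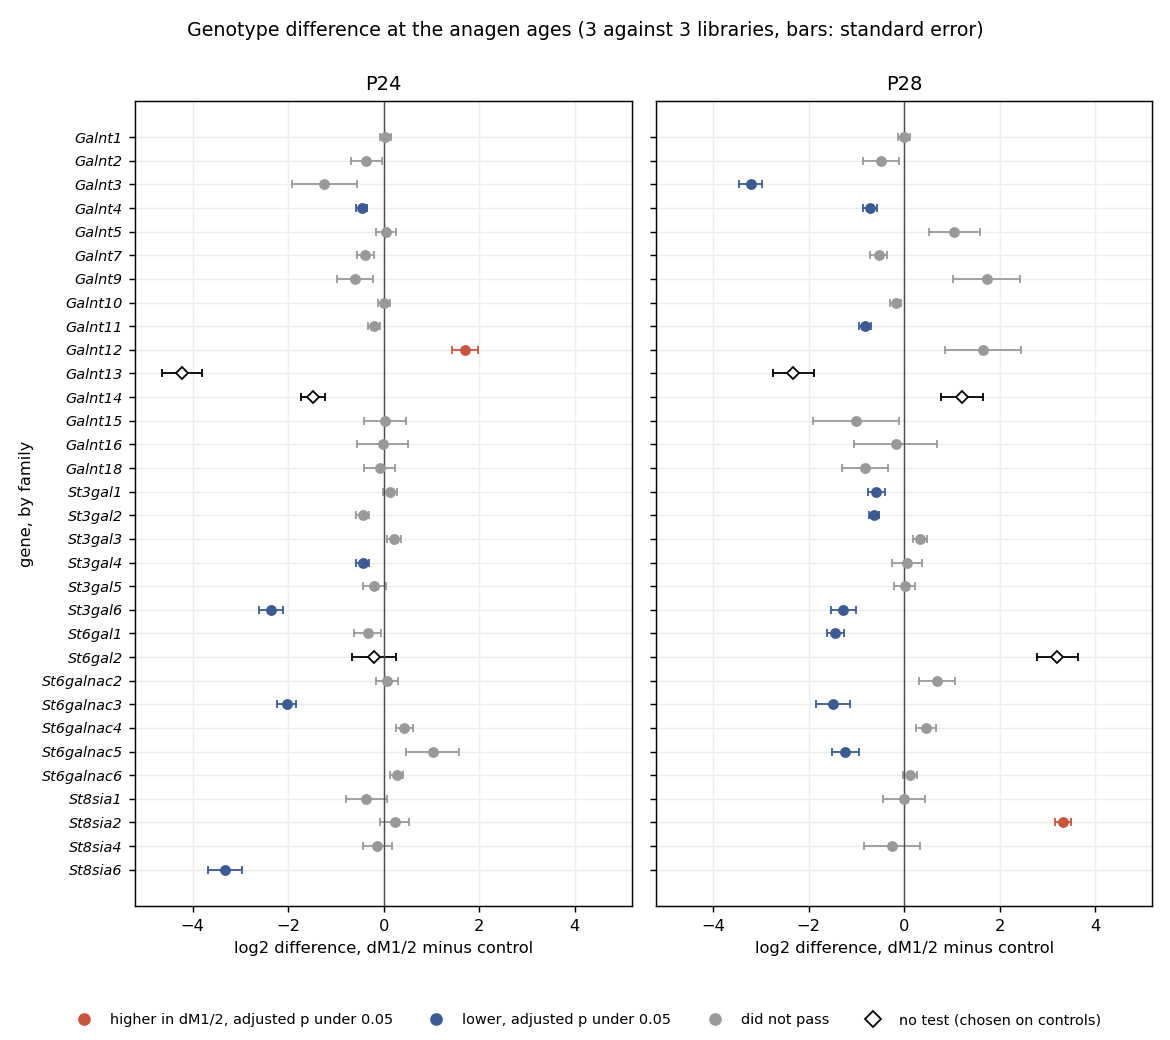
Log2 difference (dM1/2 minus control) with its standard error for each gene tested at P24 and at P28, coloured where the adjusted p was under 0.05. Open diamonds are Galnt13, Galnt14 and St6gal2, which have no test, and the largest tested values are -3.32 for St8sia6 at P24 and 3.32 for St8sia2 and -3.22 for Galnt3 at P28.

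In telogen, where Hdac1 itself did not pass, none of these genes was called between the genotypes with limma. At P20, 29 of the 36 genes were tested and 0 passed, beside 0.433% of all genes, and 6 had an unadjusted p under 0.05. On the recovered reads, edgeR called 0 and DESeq2 called 2, Galnt5 (lower in dM1/2) and St8sia2 (higher). The same genes passed in limma with a replicate block (adjusted p = 0.0475 for Galnt5 and 0.0342 for St8sia2). St8sia2 had 104, 206 and 289.7 normalized reads in the P20 controls and 359, 436 and 473 in dM1/2, without overlap (log2 difference 1.19, adjusted p = 0.102, limma). Galnt5 had 528, 595 and 493 in controls and 373, 378 and 298 in dM1/2, also without overlap (-0.63, adjusted p = 0.0851, limma). At P20 without control 1, 4 of these genes passed, Galnt5 and Galnt16 lower and St6galnac5 and St8sia2 higher. In that fit Hdac1 itself passed too (-0.87, adjusted p = 0.0413, limma). The share of 0.433% belongs to the main fit, and the share of all genes in the alternatives is not given here.

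At P60, 31 genes were tested and 0 passed, beside 0.0% of all genes, and 3 had an unadjusted p under 0.05. With edgeR 0 were called and with DESeq2 1, St3gal5, which makes the ganglioside GM3. St3gal5 had 351, 419 and 394 normalized reads in the P60 controls and 174, 199 and 200.0 in dM1/2, without overlap (log2 difference -1.02, adjusted p = 0.564, limma).

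Between the telogens, P20 and P60, both genotypes were compared with themselves. In controls, 6 of 30 genes tested passed the threshold, 4 higher and 2 lower at P60, beside 12.6% of all genes (6.12% higher and 6.45% lower). In dM1/2, 4 of 31 passed, 1 higher and 3 lower, beside 6.32% of all genes (3.96% higher and 2.35% lower). Galnt15 and Galnt9 passed in the same direction in both genotypes.

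Galnt15 had 2006, 498 and 568 normalized reads in the P20 controls and 4941, 3058 and 5146 in the P60 controls (log2 difference 2.36, standard error 0.45, adjusted p = 0.011, limma). In dM1/2, it had 478, 403 and 636 at P20 and 9043, 3319 and 2038 at P60 (2.99, standard error 0.48, adjusted p = 0.0165, limma). No P20 library reached the lowest P60 library in either genotype. Galnt9 fell, from 107, 197 and 221 to 33.6, 28.6 and 11.5 in controls (-2.85, adjusted p = 0.00392) and from 109, 268 and 187 to 25.2, 2.51 and 14.1 in dM1/2 (-3.99, adjusted p = 0.0233), both with limma and again without overlap. The markers of other fibroblasts summed to 66573 to 108650 at P20 and 89732 to 102821 at P60 in controls, and to 50039 to 60615 and 85551 to 167559 in dM1/2, where their part in the rise of Galnt15 was not tested. The 12 DP markers summed to 28182 to 30720 at P20 and 15214 to 21045 at P60 in controls, with 4 called lower and 1 higher, and to 33161 to 47867 and 14699 to 19743 in dM1/2, with 6 called lower. Their part in the changes between the telogens was not tested.

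St8sia6 rose between the telogens in controls, from 18.7, 8.12 and 8.60 to 50.4, 45.3 and 145 normalized reads (log2 difference 2.55, standard error 0.55, adjusted p = 0.0181, limma). St8sia4 rose in controls from 18.7, 24.3 and 22.9 (7, 9 and 8 reads) to 79.8, 64.3 and 50.7 (1.50, adjusted p = 0.0234, limma). In dM1/2 it had 31.8, 28.8 and 55.5 at P20 and 63.1, 88.0 and 37.7 at P60, with overlap and without a call. St3gal6 was also higher (1.46, adjusted p = 0.0262) and Galnt5 lower at P60 in controls (-1.40, adjusted p = 0.000996). In dM1/2, St8sia6 had 31.8, 17.7 and 22.2 normalized reads at P20 and 17.7, 22.6 and 37.7 at P60 (0.09, adjusted p = 0.93, limma), and the difference between the genotypes in this step was not tested. St3gal5 fell in dM1/2 from 434, 398 and 523 to 174, 199 and 200.0 (-1.23, adjusted p = 0.0118, limma), and St6galnac5 from 1649, 1107 and 1333 to 739.7, 495 and 734 (-1.06, adjusted p = 0.0316, limma). Without P20 control 3, the calls of Galnt15, St3gal6, St8sia4 and St8sia6 in controls were lost and 2 remained, Galnt5 and Galnt9. The call of St3gal6 was also lost without any 1 of the P60 controls, that of St8sia4 without P60 control 1 or 2, and that of St8sia6 without P60 control 3. With a replicate block, St3gal6 and St8sia4 did not pass. Without any 1 of the P20 dM1/2 libraries, the count in dM1/2 was 0, and without P60 dM1/2 2 the calls of Galnt15 and St6galnac5 were lost.

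**Figure D5:**
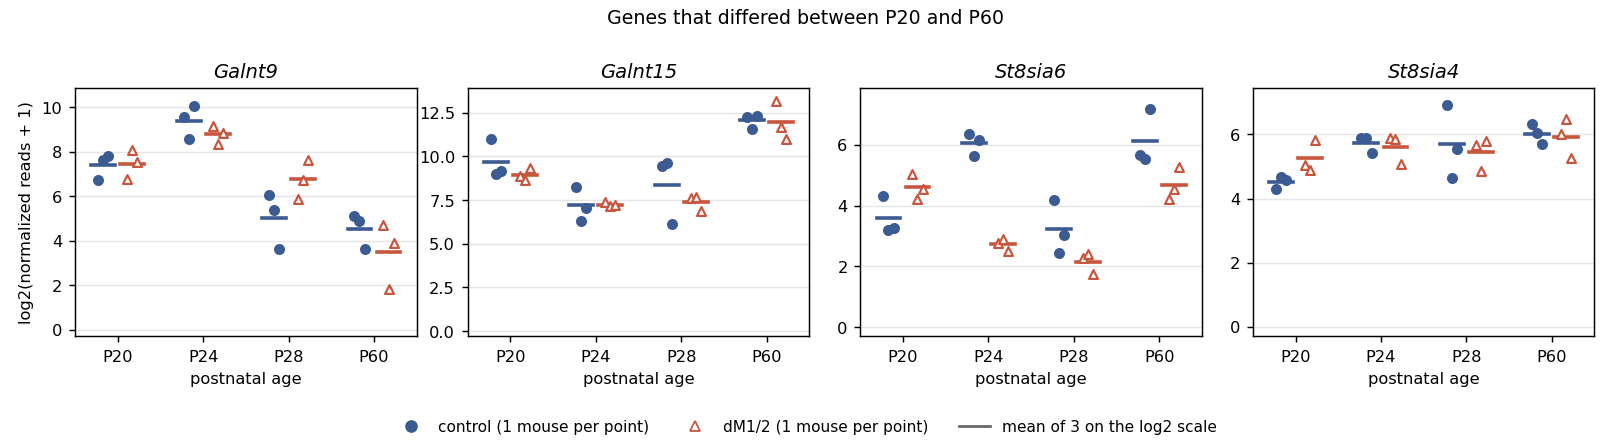
Normalized reads of Galnt9, Galnt15, St8sia6 and St8sia4 on the scale log2(normalized reads + 1) at the 4 ages, 1 point per mouse, with a line at the mean of 3. From P20 to P60 the points of Galnt9 move down and those of Galnt15 move up in both genotypes. St8sia6 and St8sia4 move up in controls, while their dM1/2 points overlap between these ages.

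The genotype difference itself was compared between anagen (P24 and P28) and telogen (P20 and P60) over all 24 libraries. Of 29 genes tested among the 33 chosen by name, 8 passed the threshold, 1 toward higher and 7 toward lower values of dM1/2 in anagen, beside 30.2% of all genes (16.1% higher and 14.1% lower). St3gal6 was the furthest, at -2.27 on the log2 scale (standard error 0.26, adjusted p = 8.18e-06, limma), followed by St8sia6 at -1.98 (0.49, adjusted p = 0.00504) and St6galnac3 at -1.81 (0.32, adjusted p = 0.000395). Galnt12 was the gene with the positive difference, at 1.60 (0.55, adjusted p = 0.0331).

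Other genes of the pathway were counted from 8 lists that hold 48 genes. At P24, 13 of 40 tested genes passed (4 higher and 9 lower in dM1/2), beside 26.6% of all genes, and at P28 15 of 39 passed (4 higher and 11 lower), beside 35.5% of all genes. Without the library labelled P28 control 3, 20 of 39 passed at P28, beside 40.9% of all genes. In the supply of CMP-sialic acid, Nans, a synthase of sialic acid, was higher at P28 (log2 difference 0.98, adjusted p = 0.012, limma), and Slc35a1, which carries CMP-sialic acid into the Golgi, was lower (-1.05, adjusted p = 0.00314). The same directions were called at P24 for both genes, and with all libraries they were the genes called of 5 tested in this list at either age. Without the library labelled P28 control 3, Cmah (-1.60, adjusted p = 0.00212) and Gne (-0.48, adjusted p = 0.0435) were called lower at P28 as well (limma).

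Among the sialidases and the genes of sialic acid O-acetylation, 3 of 4 tested were lower at P28. Siae, an esterase of sialic acid, had means of 260.5 in dM1/2 and 657 in controls (log2 difference -1.33, adjusted p = 0.0009, limma). Casd1, which adds the acetyl group, had 481 and 937 (-0.95, adjusted p = 0.0039, limma). Without the library labelled P28 control 3, Siae and Casd1 passed and Neu1 and Neu3 did not (adjusted p = 0.0738 and 0.532, limma). In the glycosphingolipid path, B3gnt5, which starts lacto-series lipids, had 704 normalized reads in dM1/2 and 9.15 in controls at P28 (6.35, adjusted p = 0.000434), while B4galnt1, which extends gangliosides, had 266 and 678 (-1.35, adjusted p = 0.00203). Of 7 genes in this path, 2 were higher and 2 lower at P28. Without the library labelled P28 control 3, B4galt5 and B3gnt5 were called higher and B4galnt1 lower. Among 5 galactosyltransferases, 3 were lower at P28, B4galt1, B4galt2 and B4galt4, with B4galt4 at -1.40 (adjusted p = 0.00271). C1galt1c1, the chaperone needed to extend O-glycans, was lower at P28 (-0.75, adjusted p = 0.0274), with all libraries the 1 of 4 tested genes of mucin core extension to pass. Without the library labelled P28 control 3, C1galt1 (-1.42, adjusted p = 0.00511) and Gcnt4 (1.74, adjusted p = 0.00465) passed as well (limma). Of the Galnt relatives outside the choice, Wbscr17 was lower at P28 (-1.46, adjusted p = 0.0434) and at P24 (-1.16), where Galntl6 was lower too (-3.34, adjusted p = 0.0171), all with limma. Of 7 tested genes for proteins that carry these glycans, Cadm1 was called at P24 (lower, -0.92, adjusted p = 0.0478, limma). At P28, Cd34 was called lower only without the library labelled P28 control 3 (-1.58, adjusted p = 0.0164, limma).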

How the data were processed

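The 24 libraries of sorted DP cells were grouped by the age and genotype in the sample labels, 3 per group. The authors removed ribosomal RNA from 100 ng of total RNA, prepared strand-marked libraries for single-end sequencing, used Trimmomatic for trimming, TopHat2 for alignment to mm10, HTSeq for counting on GRCm38 genes and DESeq2 for normalization. The DESeq2 version and the strand setting are not given in the sources used here. The deposited signal is thus a read count scaled by a size factor for each library. Division by the value of a single read gave whole reads for 100% of values (within 0.1). The authors' own fold changes and p-values in the same files were not used. Depth lay between 8171944 and 49331751 reads on genes per library, so that low genes are measured less precisely in telogen.

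Each comparison was fitted over all genes with limma 3.58.1 (trend) on log2(normalized reads + 1), two-sided, keeping genes whose mean in the libraries compared reached 10 normalized reads. P-values were adjusted by Benjamini-Hochberg across all genes kept, and the threshold was 0.05. The fit was tested on simulated data. A level per kilobase used the exon bases of each gene in GENCODE (GRCm38). Alternatives were edgeR 4.0.16 (TMM) and DESeq2 1.42.0 on the recovered whole reads, a pseudocount of 10, no filter on low values, a replicate block, a single fit over 24 libraries, an adjusted p under 0.01 and each library left out in turn. The genes and lists were chosen with earlier results of these data known. Values in every library are given for Galnt13, Galnt14 and St6gal2, for up to 4 genes per family with the largest difference past the threshold and without overlap at P24 or P28, and for up to 4 genes past the threshold in each other comparison. Up to 3 genes of a pathway list are named, by the size of a difference past the threshold at P24 or P28. Promoter sequences are from RefSeq (GRCm38.p6), read as 250 bases before the start. Some genes of the fixed lists are not reported here.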

Additional observations from a re-analysis of the deposited data

Results flagged for a closer look

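For 8 of the 29 genes tested, the difference between dM1/2 and control itself differed between the anagen ages (P24 and P28) and the telogen ages (P20 and P60), by the test of that difference over 24 libraries with limma. This share is not above that of all genes, of which 30.2% passed. On the log2 scale, anagen minus telogen, the values were -2.27 for St3gal6, -1.98 for St8sia6, -1.81 for St6galnac3, -0.63 for St3gal2, -0.52 for Galnt4, -0.49 for Galnt11, -0.49 for Galnt7 and 1.60 for Galnt12. The test compares the genotypes within each age, so that sex and depth, which change with the stage, cannot be told apart from it. Of 29 alternatives (the stricter threshold of 0.01 not among them), St3gal6, St8sia6, St6galnac3, St3gal2, Galnt4 and Galnt11 kept the call in all, while Galnt7 and Galnt12 lost it in 8 each. No group has more than 3 libraries, so that no library was tested for standing apart.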

How the results depend on the processing

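Of 36 single-gene calls, 19 held in every alternative other than the stricter threshold, which was counted only in the totals below, and of their 568 alternative values 491 stayed past the threshold in the same direction, 77 lost it and 0 changed sign. The count at P20 (0) was 2 with DESeq2 and 2 with a replicate block, and that at P60 (0) was 1 with DESeq2. The count at P28 (10) was 6 at an adjusted p under 0.01. For P28 against P24 in dM1/2 (2), it was 1 with edgeR, 5 with DESeq2, 0 in a single fit over 24 libraries and 0 at an adjusted p under 0.01. For P60 against P20 it was 2 in controls (6) at an adjusted p under 0.01, and in dM1/2 (4) 7 in a single fit and 0 at an adjusted p under 0.01. For anagen minus telogen (8), 3 were left at an adjusted p under 0.01. Leaving out each library gave 0 to 4 at P20, 4 to 7 at P24, 7 to 15 at P28 (the highest without the library labelled P28 control 3), 0 to 0 at P60, 0 to 3 for P28 against P24 in dM1/2, 2 to 8 for P60 against P20 in controls, 0 to 7 in dM1/2 (7 without P60 dM1/2 1 or 3) and 6 to 10 for anagen minus telogen. The cause of these changes was not tested. No comparison had all of its same-number correlations over 0.1, so that the numbers were not taken to pair the libraries. At P20 they were 0.231, 0.0822 and 0.116, above the highest of other pairs (0.072), a hint from the data and not from the design. With the replicate block, 4 genes passed at P24, 9 at P28, 0 at P60 and 8 for anagen minus telogen. The share of all genes is not given for these alternatives, except 40.9% at P28 without the library labelled P28 control 3. In the others, a change in a count cannot be told from a change over all genes. The depth of telogen libraries limits what is seen of Galnt13, Galnt14 and St8sia6 there.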

Other observations

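At P60, Galnt3 had 23.1, 21.4 and 32.3 normalized reads in controls and 2.52, 2.51 and 21.2 in dM1/2, without passing the threshold (log2 difference -2.01, adjusted p = 0.986, limma). These values came from 11, 9 and 14 reads in controls and 1, 1 and 9 in dM1/2. The nearest libraries of the genotypes thus held 9 reads each and were set apart only by the size factor. Galnt13 had 45.4 normalized reads in P60 dM1/2 1, from 18 reads, and 2.51 and 2.35 in the other dM1/2 libraries of that age, from 1 read each. St6galnac5 was measured at 302, 590.4 and 161 normalized reads in the P24 controls and at 309.7, 1035 and 759.9 in dM1/2 (log2 difference 1.03, adjusted p = 0.214, limma), while at P28 the difference had the opposite sign.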
